A study of Mus musculus with 6 samples.

Results

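The regions described here are stretches of the mouse genome from which RNA was assembled in regulatory T cells although the deposited tables list no reference gene there. Each table pairs reference genes, with Ensembl identifiers, and rows assembled from the reads of that library. An assembled row was taken where it overlapped no reference gene on either strand. Rows were joined across libraries by overlap on the same chromosome and strand, and FPKM (fragments scaled to transcript length and to the sequencing of the library) was summed per library, with a library that had no row set to 0. Joining gave 2545 loci from 122293 assembled rows of all kinds. The 914 loci with at least 0.5 FPKM in 2 or more libraries were kept, and they stand beside 47643 reference gene identifiers. The loci were thus chosen by FPKM, and their levels are a description. The 3 loci just inside the threshold had a second highest library of at most 0.504 FPKM, and the 3 just outside between 0.494 and 0.499 FPKM.

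The cells were natural regulatory T cells (nTregs), which express Foxp3 and restrain immune responses, taken from spleens of Foxp3-DTR/EGFP animals on the C57BL/6 background, a strain whose Foxp3 locus drives a diphtheria toxin receptor and a green fluorescent protein. Cells of both groups were activated for 2 days with plate-bound antibody to CD3, soluble antibody to CD28 and IL-2. They were then kept for 6 h with DMSO vehicle (3 libraries) or with an EP4 agonist at 100 nM (3 libraries), EP4 being a prostaglandin E2 receptor that raises cyclic AMP, and sorted on GFP. The labels give no age and do not say whether the replicates are separate animals, cultures or aliquots, so the spread behind each p-value may be technical. Changes in RNA per cell and in the cells present cannot be told apart in such bulk samples.

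Transcription outside annotated genes has several known forms. Promoters of many genes are divergent and give a second, often unstable RNA on the opposite strand. RNA can also run past the end of a gene, and long intergenic noncoding RNAs have promoters of their own. Processed pseudogenes are copies of messenger RNAs that were reverse transcribed into the genome, lack introns and often remain nearly identical to the gene they came from, so short reads of the gene can be placed on the copy. A gene that an annotation release leaves out looks intergenic in tables built on that release.

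Aligned sequence was estimated at between 4.32 and 5.65 gigabases a library, from an upper quantile of the ratio of coverage to FPKM over assembled rows. That ratio was not the same for all rows, so the estimate is rough. Between 598 and 657 of the kept loci had a value above 0 in each library. They held 2.26 to 4.01% of the summed FPKM of assembled rows, with the lowest share in vehicle replicate 3 and the highest in agonist replicate 2. All 8 markers of T and regulatory T cells had at least 1 FPKM in every library. Their summed FPKM was 1784 to 1955 in the vehicle and 2015 to 2118 in the agonist libraries. Of these markers only Ctla4 had groups that did not overlap, with 206 to 277 FPKM in vehicle and 314 to 414 FPKM in agonist libraries. The summed levels of 7 marker lists of other cell types stayed at or below 6.40 FPKM in each library. Of these lists, 1 marker of dendritic cells and 1 of erythroid cells were at 0 throughout.

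Sequences of processed pseudogenes are shown first because most of them differ from a highly expressed coding gene by only a few bases. Each pair gives a stretch of 120 bases of a locus and of the coding transcript it matched best, 5′ to 3′ on the strand of the pseudogene, with the bases that differ in capitals. The first is AC090881.3 (named Rps2-ps8 in RefSeq), a copy of Rps2, which encodes a protein of the small ribosomal subunit, from chr17:31644462-31644581 on the minus strand of mm10. It is set against bases 365 to 484 of the Rps2 transcript, whose coding region runs from base 167 to base 1045. The differences in it are T6C and A116T, written as the base of the coding transcript, its position from 1 at the 5′ end of the stretch, and the base of the pseudogene.
AC090881.3: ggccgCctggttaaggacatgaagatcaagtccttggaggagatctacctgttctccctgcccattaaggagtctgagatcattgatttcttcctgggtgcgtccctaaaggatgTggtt
Rps2: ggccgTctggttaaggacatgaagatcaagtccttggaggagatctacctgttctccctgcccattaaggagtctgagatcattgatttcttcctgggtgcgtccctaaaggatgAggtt
The next is Gm5854, a copy of Rpl7a, a gene of the large ribosomal subunit, from chr14:101982519-101982638 on the minus strand, set against bases 190 to 309 of the Rpl7a transcript. It holds the single difference A61G.
Gm5854: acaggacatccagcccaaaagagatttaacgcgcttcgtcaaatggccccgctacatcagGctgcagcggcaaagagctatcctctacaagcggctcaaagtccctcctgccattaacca
Rpl7a: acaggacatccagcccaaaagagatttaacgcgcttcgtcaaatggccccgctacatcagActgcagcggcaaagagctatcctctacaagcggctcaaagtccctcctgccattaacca
The last is Gm4739, a copy of Hmgb2, which encodes a chromatin protein of proliferating cells, from chr10:26108299-26108418 on the plus strand, set against bases 634 to 753 of the Hmgb2 transcript. Its differences are C45T and C96A.
Gm4739: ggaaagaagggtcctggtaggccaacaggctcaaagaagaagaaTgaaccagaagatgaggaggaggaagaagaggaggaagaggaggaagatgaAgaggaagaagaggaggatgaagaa
Hmgb2: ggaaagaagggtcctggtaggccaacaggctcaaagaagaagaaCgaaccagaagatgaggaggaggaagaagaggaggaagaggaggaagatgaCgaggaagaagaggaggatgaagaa

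Strand split the loci into unlike kinds. The 504 loci without an assigned strand were short, with a median length of 569 bases, while the 410 with a strand had a median of 6534 bases. The longest covered 174550 bases on the plus strand of the unplaced X scaffold GL456233, over Tmlhe, an enzyme of carnitine synthesis, and had 2.75 to 5.02 FPKM. The locus joined from most rows, chr13:74507706-74617969 on the minus strand, lay over the noncoding gene Gm46430 with 9.90 to 15.1 FPKM. Of all kept loci, 269 had a value in all 6 libraries (130 with a strand and 139 without), 143 in 5, 159 in 4, 147 in 3 and 196 in 2. The 1686 values of 0 were mostly places with no assembled row (1222, or 72.5%). In 245 cases (14.5%) the row of that library reached into a reference gene and so did not count, and in 219 there was a row on another strand. A value of 0 therefore need not mean that no RNA was made.

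Some RNA was entered under more than 1 locus. There were 46 overlapping pairs of a locus with a strand and a locus without, which involved 41 loci of each kind. In the 36 pairs where both were listed in some library, the median ratio of the level without strand to that with strand was 1.08, and 10 pairs agreed to within 10%. A further 24 pairs of kept loci overlapped on opposite strands.

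Most of the loci overlapped a gene of another annotation, where an overlap of any length on either strand was counted. Such an overlap need not mean that the RNA of the locus is that of the gene. GENCODE M21 has genes with no identifier in the tables under 257 of the 914 loci, and a longer model of a listed gene under another 38. RefSeq alone has a gene under 219, and 400 lay in neither. Counted by locus, the unlisted M21 genes were processed pseudogenes at 101 loci, transcribed processed pseudogenes at 11, long intergenic noncoding RNAs at 75, coding genes at 29, noncoding RNAs of bidirectional promoters at 11, and smaller classes. Some genes lay under more than 1 locus. The genes present only in RefSeq were long noncoding RNAs at 117 loci, coding genes at 45 and pseudogenes at 41 as the main classes. Loci in neither annotation were short, with a median length of 1068 bases, and 280 of these 400 had no strand.

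Kept loci were dense on chromosomes where the tables list fewer M21 genes. In all, 8312 of 55536 M21 genes (15.0%) had no identifier in the tables, and the share was uneven. On 11 chromosomes it ran from 23.8 to 40.9%, and these held 516 kept loci, or 30.9 per 1000 listed reference genes. On the other 10 it ran from 0 to 7.24%, and these held 377 kept loci, or 12.2 per 1000. Unlisted genes are missing from the number by which the loci were divided and can themselves appear as loci. The density and the unlisted share are thus not independent. With unlisted genes included, the 11 chromosomes hold 24120 M21 genes and the other 10 hold 31293. Chromosome 13 had the highest density, 54.1 per 1000 (82 loci), and chromosome 3 the lowest, 5.53 per 1000. Another 21 loci lay on 11 unplaced scaffolds, on which the tables list no reference gene.

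**Figure D1:**
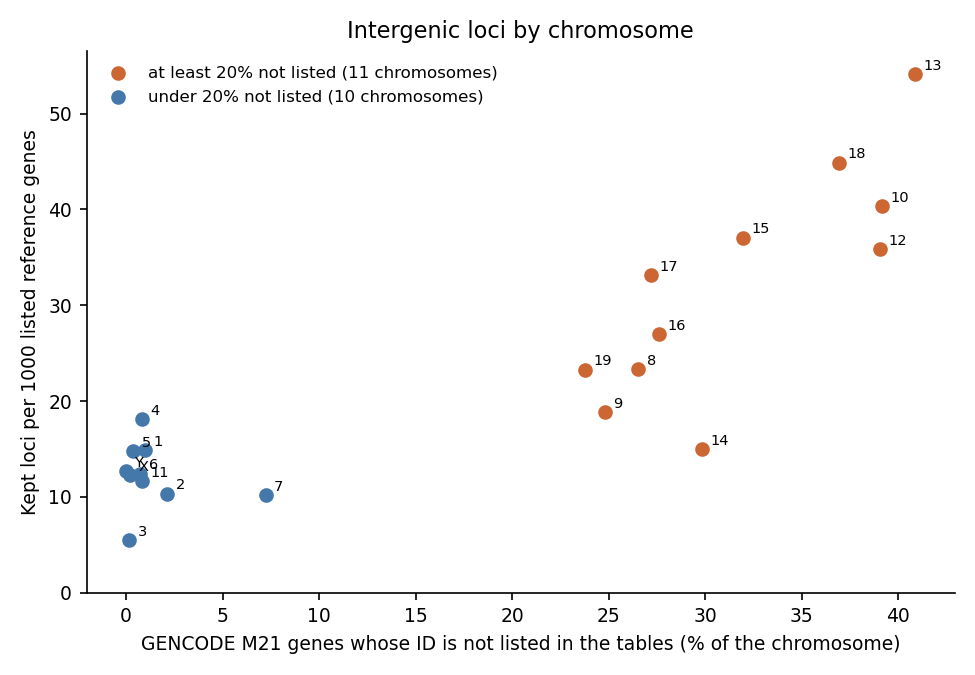
Each point is a chromosome, with the share of its GENCODE M21 genes whose identifier is not in the tables on the horizontal axis (%) and the number of kept loci per 1000 listed reference genes on the vertical axis. The 11 chromosomes with at least 20% not listed lie between 15.0 and 54.1 loci per 1000, and the other 10 between 5.53 and 18.2. Unlisted genes are left out of the gene number on the vertical axis, so the axes are not independent.

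Levels were concentrated in few loci. The mean FPKM over the 6 libraries was below 1 for 415 loci, 1 to 10 for 421, 10 to 100 for 63 and at least 100 for 15, with a median of 1.12 and a range from 0.175 to 4124. The highest locus held 28.9% of the summed FPKM of all kept loci, the highest 5 held 61.7% and the highest 10 held 71.6%. It was chr3:5860338-5860774, 437 bases without strand and 20058 bases from the nearest gene, Gm37350. Its FPKM was 4829, 4200 and 2542 in vehicle replicates 1 to 3 and 3869, 6232 and 3074 in agonist replicates 1 to 3. Agonist replicate 2 was the highest and vehicle replicate 3 the lowest, and the groups overlapped.

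This order of the libraries recurred in 6 other loci, all without strand and 214 to 447 bases long. From highest to lowest it was agonist 2, vehicle 1, vehicle 2, agonist 1, agonist 3 and vehicle 3. They were chr18:68692061-68692317 (1006 to 2507 FPKM), chr8:15519774-15520125 (771 to 1776 FPKM), chr14:104715773-104715986 (694 to 1508 FPKM), chr11:109011771-109012120 (488 to 1151 FPKM), chr6:44792929-44793246 (120 to 292 FPKM) and chr15:86194825-86195271 (53.0 to 123 FPKM). The chromosome 14 locus lies in D130009I18Rik, a long intergenic noncoding RNA of M21. The chromosome 18 and chromosome 11 loci overlap Gm30821 and Gm36876, long noncoding RNAs of RefSeq alone. The rest of the 7 loci overlap no gene of either annotation. The 7 loci were grouped after their values were seen and held 63.5% of the summed FPKM of kept loci. The highest library exceeded the lowest by 2.17 to 2.49 times in each of them. Among reference genes above 0 in all 6 libraries, 25 of 18133 (0.138%) had the same order. Rn18s-rs5, a reference row named for 18S ribosomal RNA, was highest in the same library and lowest in the same library, with 4063 FPKM in agonist replicate 2, 1172 in vehicle replicate 3 and 1385 to 2379 in the others. AY036118, a row often set aside because it collects ribosomal RNA reads, had 5218 FPKM in agonist replicate 2 and 889 in vehicle replicate 3. Gm42418 and Gm26917, also treated in this way, were also highest in agonist replicate 2, at 381 and 71.3 FPKM, but Gm42418 was nearly as high in vehicle replicate 1 (365 FPKM) and was lowest in agonist replicate 3 (211 FPKM). None of these rows had exactly the order of the 7 loci, and the part of ribosomal RNA in the levels of the 7 loci was not tested.

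**Figure D2:**
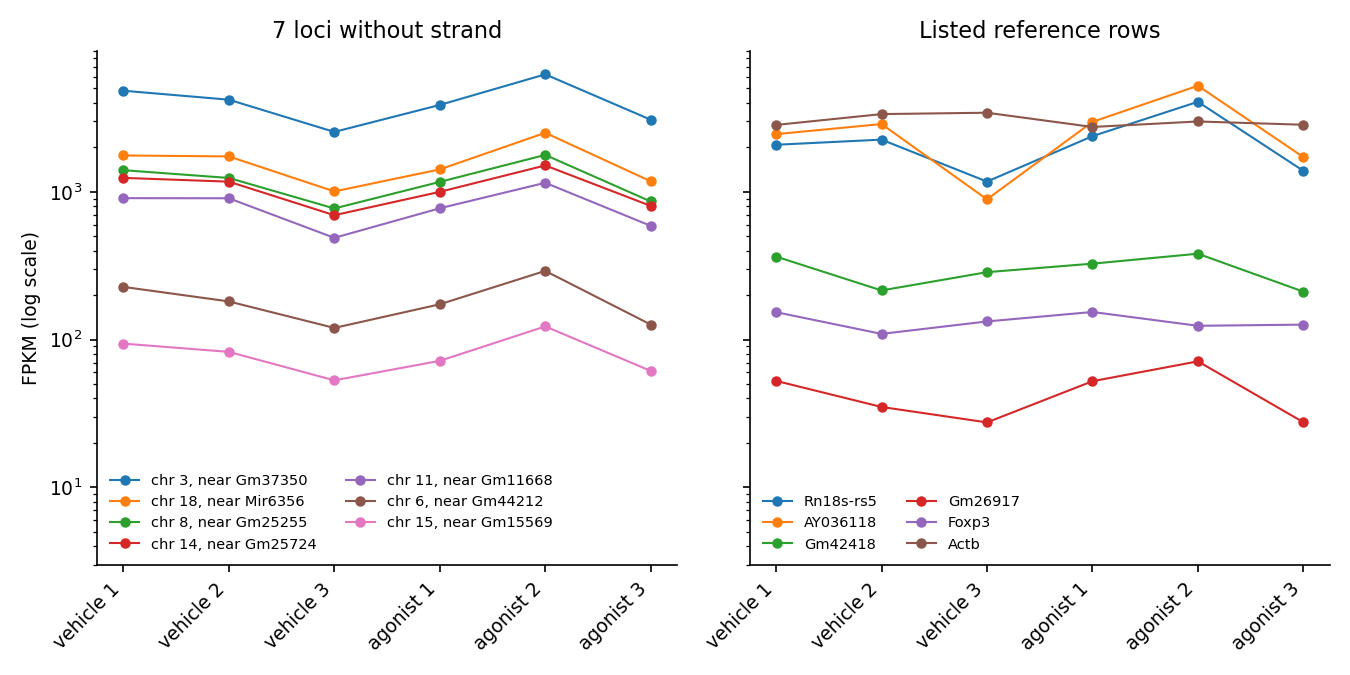
FPKM on a log scale (vertical) in each of the 6 libraries (horizontal) for the 7 loci that share 1 order of libraries (left) and for listed reference rows (right), with lines that join the values of 1 locus or gene. All 7 loci peak in agonist replicate 2 and are lowest in vehicle replicate 3, while Actb and Foxp3 do not follow this course.

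The other loci among the 10 highest had separate patterns. The locus chr6:3200821-3201608, without strand, had 249 to 437 FPKM in vehicle and 238 to 687 in agonist libraries. A locus of 439 bases on the unplaced scaffold GL456382 had 266 to 406 and 311 to 386 FPKM. The locus chr6:41196235-41202083, without strand, lies in the T cell receptor beta region, 467 bases from the V segment Trbv21. It had 262, 193 and 203 FPKM in vehicle and 327, 245 and 282 FPKM in agonist replicates 1 to 3, and the groups overlapped. A plus-strand locus over nearly the same bases had 105 to 139 FPKM in 4 libraries and was at 0 in vehicle replicates 2 and 3.

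The locus chr15:78479197-78480424 on the plus strand lies 129 bases past the listed end of Il2rb, on the opposite strand, and inside a longer M21 model of it. Il2rb encodes the beta chain of the IL-2 receptor. It had 456 to 495 FPKM in vehicle and 523 to 595 FPKM in agonist libraries, with an adjusted p of 0.333 in limma. The locus had 310 and 295 FPKM in vehicle replicates 1 and 2, 383 and 374 FPKM in agonist replicates 1 and 2, and was listed at 0 in replicate 3 of both groups, where no row was assembled. Replicate 3 thus stood apart in both groups.

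The highest locus with a strand and a value in every library was chr11:86809432-86816395 on the plus strand, 1686 bases upstream of Dhx40, a gene for an RNA helicase, and head to head with it. It lies in no gene of either annotation. Its FPKM was 181, 93.3 and 175 in vehicle and 261, 263 and 315 in agonist replicates 1 to 3. Every agonist library was above every vehicle library. The log2 fold change on the log2(FPKM + 1) scale was 0.95 ± 0.25 (SE), with an adjusted p of 0.204 in limma, and 0.0640 with the replicate number as a block. Dhx40 itself had 9.93 to 14.9 FPKM.

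Processed pseudogenes were the largest class of unlisted M21 genes. Of their 112 loci (processed and transcribed processed), 104 had at least 100 bases of a single-exon model under them, and 102 of these matched a listed coding transcript. Median identity was 98.6%, with 67 at 98% or more and 11 identical throughout the match. The longest run without a difference had a median of 168.5 bases and was at least 100 bases in 83. Ribosomal protein genes accounted for 22 of the matches and Eef1a1, a translation elongation factor, for 4, among 83 distinct genes. The matched genes were highly expressed, with a median of 88.2 FPKM against 2.76 FPKM for the loci, and 86 of 102 were above the median of tested reference genes, 10.1 FPKM. In 9 pairs the locus was above its gene, which in 4 of them was listed at 0 in every library. The copy covered at least 50% of the locus in 84 pairs, with medians of 113 FPKM for the genes and 2.97 FPKM for the loci. In the other pairs it was a smaller part of a longer locus, down to 0.530%, whose level is not that of the copy. No strand was given for 87 of the 102. Reads of a gene and of a copy identical over such runs cannot be told apart, so these levels are uncertain.

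Among the 3 copies shown above, Gm5854 was listed at a level close to that of its gene. The locus had 159, 134 and 179 FPKM in vehicle and 115, 137 and 144 FPKM in agonist replicates 1 to 3, and Rpl7a had 97.9 to 161 FPKM. The match covers 341 bases with 1 difference. Gm4739 had 54.0, 77.1 and 79.9 FPKM in vehicle and 51.2, 64.6 and 72.5 FPKM in agonist libraries, against 350 to 506 FPKM for Hmgb2, with 2 differences in 633 bases. The groups overlapped for both copies. A further locus over Gm9616, a copy of Rps4x, another gene of the small ribosomal subunit, had 80.4 to 105 FPKM in vehicle libraries, 45.7 and 40.6 FPKM in agonist replicates 1 and 3 and 102 FPKM in agonist replicate 2.

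**Figure D3:**
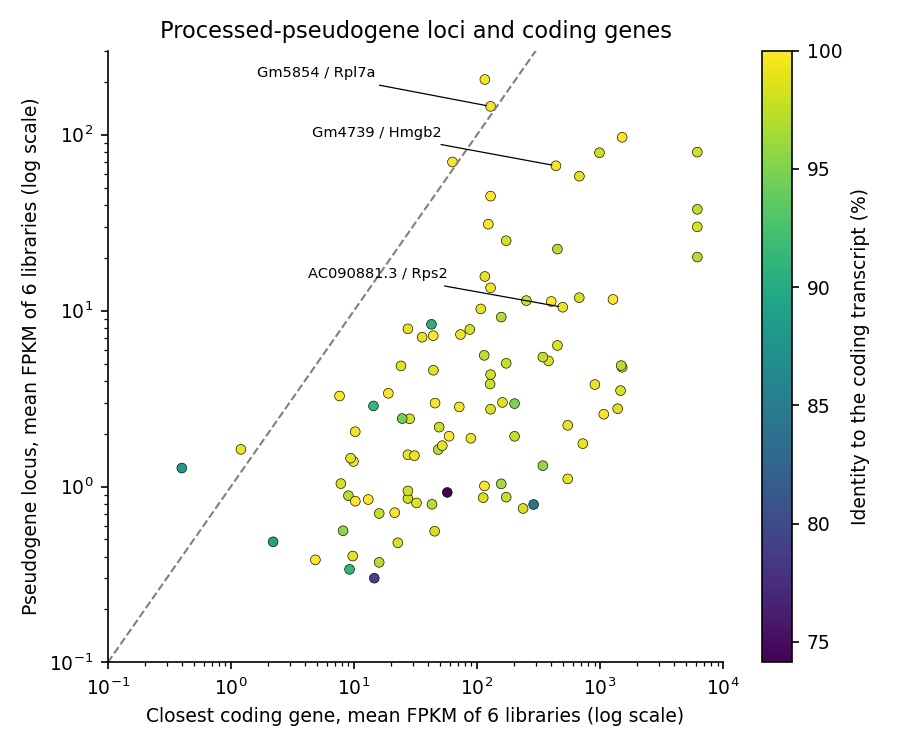
Mean FPKM over the 6 libraries of 98 pseudogene loci (vertical, log scale) against that of the coding gene each matched best (horizontal, log scale), coloured by percent identity. The dashed line marks equal levels, most points lie below it, and 4 pairs whose coding gene is at 0 in every library are left out.

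Where a strand was given, the loci clustered at the upstream ends of genes on the opposite strand. Of 410 loci with a strand, 135 lay upstream of their nearest gene and on the other strand (head to head), of which 94 were within 5 kb and 79 within 1 kb. Within 1 kb the other positions held fewer: 15 were on the opposite strand downstream, 18 on the same strand upstream and 9 on the same strand downstream. The remaining 16 lay on scaffolds without reference genes. Assembled rows that reached into a reference gene had been left out before this count, and the part of that selection in the head-to-head excess was not tested.

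**Figure D4:**
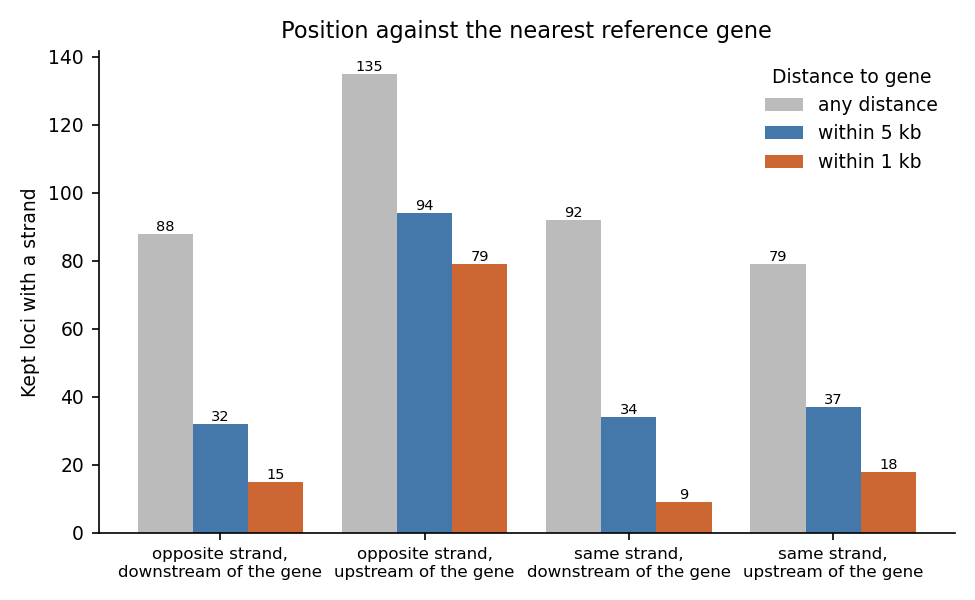
Number of kept loci with a strand (vertical) by strand and side relative to the nearest reference gene (horizontal), at any distance, within 5 kb and within 1 kb. The group on the opposite strand upstream of the gene has 79 loci within 1 kb, against 9 to 18 in each other group.

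Within 1 kb of its gene, the head-to-head locus with the highest level was chr17:34996725-35000968 on the minus strand, over D17H6S56E-5, which RefSeq gives as coding. It starts 19 bases from Vars, the valyl-tRNA synthetase gene. It had 137, 159 and 157 FPKM in vehicle and 133, 116 and 156 FPKM in agonist replicates 1 to 3, above the 59.2 to 85.2 FPKM of Vars. The locus chr17:3111881-3114968, over A230045G11Rik and 4 bases from Scaf8, a gene for an RNA polymerase II binding protein, varied little, with 14.8 to 17.5 FPKM in vehicle and 15.1 to 15.9 FPKM in agonist libraries. Scaf8 had 16.1 to 19.5 FPKM. Beside Dock2, a guanine nucleotide exchange factor needed for lymphocyte migration, a locus that starts 30 bases away on chromosome 11 had 2.21 to 4.24 FPKM against 47.8 to 60.1 FPKM for the gene. For these 3 loci the groups overlapped. Vars itself had 83.1 to 85.2 FPKM in vehicle and 59.2 to 68.1 FPKM in agonist libraries, without overlap. Its adjusted p was 0.133 in limma and 0.0323 with the block.

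At some loci the start of the assembled RNA lay close to a RefSeq start, and the share for other positions was not computed. Of 410 loci with a strand, 91 (22.2%) began within 500 bases of a RefSeq start on the same strand, and 48 of these within 50 bases. Among them was D430020J02Rik, a long intergenic noncoding RNA of M21 198 bases upstream of Ncapg2, a condensin gene, on the opposite strand. The locus chr12:116398267-116405204 had 4.60, 5.29 and 5.13 FPKM in vehicle and 4.95, 4.42 and 5.18 FPKM in agonist libraries, and began 43 bases before the RefSeq start. Its promoter is shown as an example of such a shared upstream region. Upstream regions of the same length at Zfp33b, Gm7072 and Pvrig, where loci also began within 50 bases, were less rich in G and C. They were 50.4, 49.2 and 50.4% G or C, with 0, 1 and 0 matches to GGGCGG on either strand. That motif is the core of the site bound by SP1-type factors. The 250 bases shown, chr12:116405162-116405411 before the RefSeq start on the minus strand of GRCm38.p6 from RefSeq, are 69.6% G or C. Capitals mark 4 matches to GGGCGG on either strand.
D430020J02Rik: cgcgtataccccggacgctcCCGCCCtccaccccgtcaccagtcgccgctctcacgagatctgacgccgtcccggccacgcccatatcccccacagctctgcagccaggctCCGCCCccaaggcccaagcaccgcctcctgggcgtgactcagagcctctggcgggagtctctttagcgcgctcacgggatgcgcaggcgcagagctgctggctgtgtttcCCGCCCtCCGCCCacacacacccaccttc
GGGCGG or its complement occurred in 31 of the 91 matched upstream regions (34.1%) and in 32.7% of all 32851 in the RefSeq table, each 250 bases long. TGACGTCA, the full cyclic AMP response element and its own complement, occurred in 1 of the 91 (1.099%) and in 1.55% of all. TATAAA on either strand occurred in 7 of the 91 (7.69%) and in 12.4% of all. None of the 3 motifs contains another, and each match is a description.

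Some loci lay over coding genes that the tables do not list. Pvrig, which encodes an inhibitory receptor of lymphocytes, is in RefSeq, and a plus-strand locus on chromosome 5 began 5 bases before its RefSeq start, with a mean of 1.46 FPKM. Vamp7, a membrane fusion protein, lay on the minus strand of the X scaffold GL456233 with 10.1 to 12.5 FPKM in every library. On the unplaced scaffold JH584304 the minus-strand locus over AC149090.1 had 41.4 to 65.8 FPKM in vehicle and 28.0 to 66.5 FPKM in agonist libraries, and the groups overlapped. Gm32802, near Iltifb on chromosome 10, had 3.03 to 6.17 FPKM in vehicle and 2.37 to 7.70 FPKM in agonist libraries. These loci were chosen as examples after their values were seen.

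The effect of the EP4 agonist was tested with limma on log2(FPKM + 1), in 1 table with the reference genes, for features with at least 1 FPKM in 3 or more libraries. Of the 914 loci, 526 passed this filter, and 6 had an adjusted p below 0.05, 4 higher and 2 lower with the agonist. Over all 12712 features tested 0.409% passed, 0.346% higher and 0.0629% lower. Without adjustment 70 loci (13.3%) had a p below 0.05, as did 13.5% of all features. The median log2 fold change was 0.04 for the loci and -0.03 over all features. With the replicate number as a block, 26 loci passed, 21 higher and 5 lower, against 7.99% of all features (3.37% higher and 4.63% lower). The groups did not overlap for 73 of the 526 loci (13.9%), against 19.1% of all features. Of these loci 51 were higher and 22 lower with the agonist, against 7.37% and 11.8% of all features. A filter of 0.5 FPKM in 2 libraries, which all 914 loci pass, gave 8 loci, 5 higher and 3 lower, against 0.296% of features (0.248% and 0.0470%). With features above 0 in all 6 libraries, 238 loci were tested and 1 passed, which was higher, against 0.378% of features (0.330% higher and 0.0483% lower). The filter can be passed through 1 group alone, so these counts are no measure of how often loci responded. Among the 269 loci above 0 in all 6 libraries the groups did not overlap for 55, of which 37 were higher and 18 lower with the agonist, against 18.8% of comparable features (7.46% higher and 11.3% lower).

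Of the 6 loci that passed, 5 were listed at 0 in every library of 1 group, where no row had been assembled. They met the filter only through the other group, and their zeros have no spread, so they are described by their values, with no fold and no p. The highest was the Rps2 copy AC090881.3 shown above, chr17:31643844-31644715 without strand, 2367 bases from U2af1. It was at 0 in all 3 vehicle libraries and at 15.5, 28.8 and 18.5 FPKM in agonist replicates 1 to 3. Rps2 itself had 443 to 550 FPKM in vehicle and 491 to 505 FPKM in agonist libraries, with a log2 fold change of 0.00 and an adjusted p of 0.997. The copy matches Rps2 over 818 bases with 6 differences.

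Another pair of loci lay close together on chromosome 13, upstream of Gm11274 in the histone gene cluster. The locus chr13:21765635-21766246, without strand, was at 0 in the vehicle libraries and at 7.79, 8.33 and 8.88 FPKM in the agonist libraries. The neighbouring locus chr13:21763796-21764082 was the only one of the 6 with a value in every library. It had 7.39, 6.35 and 7.10 FPKM in vehicle and 12.7, 12.1 and 11.9 FPKM in agonist replicates 1 to 3. Every agonist library was above every vehicle library, and the log2 fold change was 0.74 ± 0.08 (SE), with an adjusted p of 0.0251 in limma and 0.0247 with the block. It no longer passed when any 1 library other than vehicle replicate 1 was left out, with an adjusted p of 0.1001 to 0.136 in limma. Neither lies in a gene of GENCODE M21 or RefSeq.

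The other 3 loci had low levels, and each was at 0 in a whole group. Whether they passed under another setting is thus a description and no support for a change. The locus chr2:134747329-134747738, 15086 bases from Gm14038, was at 0 in vehicle and at 1.22, 1.16 and 1.14 FPKM in agonist libraries. It no longer passed with a pseudocount of 0.1 or without any 1 of the 6 libraries. The locus chr13:67890560-67893570, 26637 bases from BC048507, had 2.79, 3.94 and 3.999 FPKM in vehicle and was at 0 in the agonist libraries. It no longer passed without vehicle replicate 2 or 3. The locus chr10:118238383-118238754 had 1.83, 1.47 and 1.71 FPKM in vehicle and was at 0 in the agonist libraries. It no longer passed with a pseudocount of 0.1 or without any 1 library other than vehicle replicate 1. It lies over Gm32717, 28336 bases from Il22, a cytokine gene. Of the 147 loci listed in exactly 3 libraries, 13 (8.84%) were listed in 1 group only, 7 in the agonist and 6 in the vehicle group. Of 1374 reference genes above 0 in exactly 3 libraries, 129 (9.39%) were so.

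**Figure D5:**
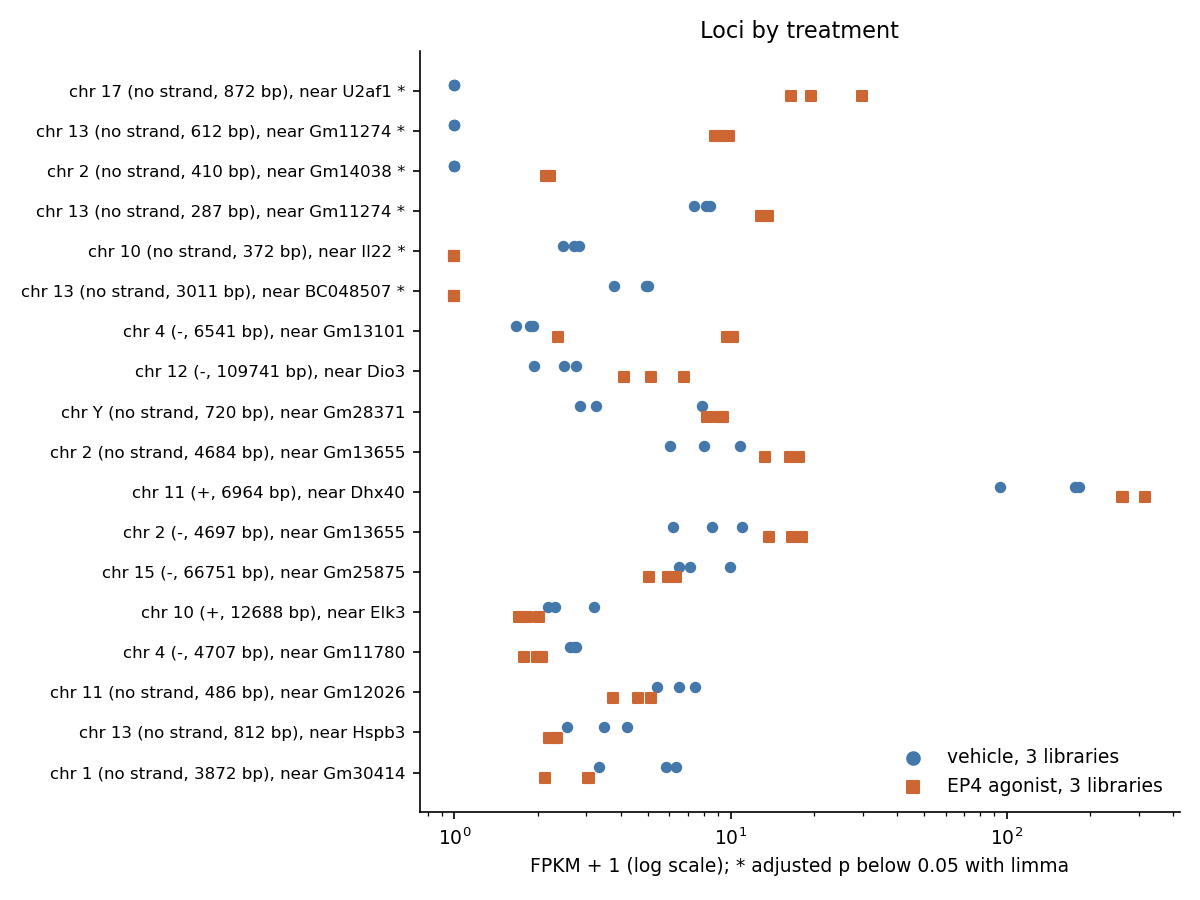
FPKM + 1 on a log scale (horizontal) in the 3 vehicle and 3 agonist libraries for the 6 loci that passed in limma (marked *) and for 12 further loci above 0 in every library whose groups do not overlap, named by chromosome, strand, length and nearest gene. A value of 1 is a library at 0, and 5 of the 6 marked loci have a whole group there.

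Among loci above 0 in every library whose groups did not overlap, the largest differences were towards higher levels with the agonist, and none of those described next passed without the block. The locus chr12:110283983-110393723 on the minus strand, 109741 bases long, lies 2886 bases from Dio3, an imprinted gene for an enzyme that inactivates thyroid hormone, and spans the pseudogene Gm9063. It had 1.499, 1.76 and 0.948 FPKM in vehicle and 5.76, 4.14 and 3.12 FPKM in agonist replicates 1 to 3. The log2 fold change was 1.14 ± 0.22 (SE), with an adjusted p of 0.118 in limma and 0.0279 with the block, and Dio3 itself was at or below 0.271 FPKM. On deposited coverage in place of FPKM the difference was absent, at a log2 fold change of -0.0047. The locus chr4:143975575-143982115, on the minus strand, had 0.921, 0.874 and 0.672 FPKM in vehicle and 8.67, 9.23 and 1.37 FPKM in agonist libraries, with agonist replicate 3 close to the vehicle libraries (adjusted p = 0.252). A locus on chromosome 2 was entered both on the minus strand (chr2:75638192-75642888) and without strand. On the minus strand it had 9.94, 5.20 and 7.56 FPKM in vehicle and 17.1, 12.7 and 15.7 FPKM in agonist libraries, with a log2 fold change of 0.95 ± 0.21 (SE) and an adjusted p of 0.169 in limma and 0.0261 with the block. A locus on the Y chromosome had 6.84, 2.25 and 1.85 FPKM in vehicle and 8.37, 7.23 and 8.02 FPKM in agonist libraries (adjusted p = 0.286 in limma).

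The 6 largest decreases among such loci had log2 fold changes from -0.43 to -0.88, and none passed in limma without the block. The largest was chr1:7478223-7482094, without strand, 15874 bases from Gm30414. It had 2.33, 5.35 and 4.81 FPKM in vehicle and 1.12, 2.07 and 2.04 FPKM in agonist replicates 1 to 3 (adjusted p = 0.265, and 0.0299 with the block). The locus chr11:19415312-19415797 had 4.42, 6.39 and 5.50 FPKM in vehicle and 2.76, 3.63 and 4.14 FPKM in agonist libraries (adjusted p = 0.269, and 0.0462 with the block). The noncoding Gm2682 locus, chr15:60120717-60187467 on the minus strand, had 6.14, 5.49 and 8.95 FPKM in vehicle and 4.93, 4.05 and 5.33 FPKM in agonist libraries (adjusted p = 0.364).

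Further loci passed only with the block. The T cell receptor beta locus described above had an adjusted p of 0.0342 with the block against 0.357 without, at a log2 fold change of 0.38. The locus chr19:4060357-4066369 on the plus strand, 911 bases upstream of BC021614 and head to head with it, had 39.4, 27.1 and 32.7 FPKM in vehicle and 57.6, 45.6 and 49.7 FPKM in agonist libraries. Each agonist library was above all vehicle libraries, with an adjusted p in limma of 0.0247 with the block and 0.180 without. BC021614 itself differed the other way, with 56.0 to 62.3 FPKM in vehicle and 51.5 to 52.0 FPKM in agonist libraries. Its adjusted p was 0.312 in limma and 0.0900 with the block.

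Some genes that responded to the agonist had a locus nearby. The share of all tested genes with such a locus was not computed, so the count is a description. Of the 46 reference genes that passed in limma, 3 had a kept locus within 10 kb. Fasl, the gene for Fas ligand, had 1.92, 1.09 and 1.30 FPKM in vehicle and 6.27, 7.70 and 5.30 FPKM in agonist libraries (adjusted p = 0.0236). The locus 3857 bases downstream of it had 0.336, 0.303 and 0 FPKM in vehicle and 0, 1.03 and 0.897 FPKM in agonist libraries. Dusp4, a phosphatase gene of MAP kinases, had 57.8 to 75.6 FPKM in vehicle and 134 to 145 FPKM in agonist libraries (adjusted p = 0.0210), while the locus 9025 bases upstream had 1.24, 0.675 and 0.799 FPKM and 0.776, 1.23 and 1.39 FPKM (adjusted p = 0.752). Creb3l2, a gene for a membrane-bound transcription factor, had 2.84 to 3.80 FPKM in vehicle and 6.75 to 8.89 FPKM in agonist libraries (adjusted p = 0.0414). The plus-strand locus 390 bases upstream of it, over Gm33318, had 0, 0.666 and 0.987 FPKM in vehicle and 0.944, 0.437 and 0.553 FPKM in agonist libraries. The groups overlapped for all 3 loci.

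Of 103 Treg, cyclic AMP and cell type marker genes, 12 had a kept locus within 20 kb, and the share over all genes was not computed. These were Bach2, Batf, Ccr7, Dusp4, Eomes, Fasl, Ikzf4, Il10, Il2rb, Il7r, Nt5e and Runx3. The locus 124 bases upstream of Ccr7, a chemokine receptor of lymph node homing, on the opposite strand and over Gm32249, had 2.27, 0.966 and 0.944 FPKM in vehicle and 2.71, 1.25 and 1.22 FPKM in agonist replicates 1 to 3. Replicate 1 was the highest in each group, as it was for Ccr7 itself, at 65.6 FPKM in vehicle and 75.4 FPKM in agonist libraries. The locus 206 bases downstream of Nt5e, which encodes the ectoenzyme CD73, had 0.759 to 1.33 FPKM in vehicle and 0.877 to 1.40 FPKM in agonist libraries. The locus 742 bases upstream of Il10, an inhibitory cytokine, was listed in vehicle replicate 2 (0.563 FPKM) and agonist replicate 1 (0.576 FPKM) and at 0 in the other 4. Loci beside Batf and Il7r, a transcription factor and a cytokine receptor gene, were at 0 in some libraries because rows there reached into a reference gene. None of the loci at these 12 genes passed in limma, with or without the block, where they were tested. Over the 32 loci that were tested, had a value in all 6 libraries and lay within 5 kb of a tested gene, the log2 fold changes of locus and gene had the same sign in 18 and correlated at a Pearson r of 0.289 and a Spearman rho of 0.239. This is a description across loci that share libraries.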

How the data were processed

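RNA sequencing tables of 3 vehicle and 3 EP4 agonist libraries were used. Per the file headers, the authors' tables give coverage (signal), FPKM and TPM per feature on mm10. The submitters' processing notes list Trim Galore and HISAT2, with no version. For the assembler, annotation release and strand setting, nothing is given in the sources used here. The deposited TPM column was not used. Fragment counts were not recovered, so no counting error is given, and precision is the spread between libraries.

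The loci were built with Python 3.11.15 and pandas 2.3.3 by the rule given at the start of the results. Loci were compared with GENCODE M21 (GRCm38) and RefSeq GRCm38.p6. Pseudogene sequences were matched to coding transcripts with blastn 2.17.0 (E-value at most 1e-20). Promoter sequences came from RefSeq. Differences were tested with limma 3.58.1 (intensity trend, robust variances, R 4.3.3) on log2(FPKM + 1), which understates changes at low levels, with Benjamini-Hochberg adjustment over all features and a threshold of 0.05. The code was tested on simulated data.

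Deviations of same-numbered libraries from their group means correlated at 0.326, 0.284 and 0.241, and those of other pairs at -0.210 to -0.032, so the numbers (from the titles) were taken to pair the libraries. That pairing rests on these correlations alone.

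The loci named are those that passed, the 10 highest by level, the 6 largest rises and 6 largest falls without overlap among loci above 0 in all 6 libraries, those near genes that passed (10 kb) or near listed Treg, cyclic AMP and marker genes (20 kb), the longest, the one with most rows, and those beside the threshold. Others are examples chosen after their values were seen. The loci and lists were chosen with earlier results of these data known. Alternatives tried were other filters, pseudocount, scaling, unit, joining, a replicate block and leaving out libraries.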

Additional observations from a re-analysis of the deposited data

How the results depend on the processing

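Without the block 6 loci passed in limma. Leaving out 1 library at a time gave 3 to 16, with 16 without vehicle replicate 1 (0.968% of all features passed) and 3 without vehicle replicate 3 (0.0236%), and only 1 passed when features had to be above 0 in all 6 libraries (0.378%). A filter of 0.5 FPKM in 2 libraries gave 8 (0.296% of all features) and no filter gave 5 (0.0276%). A pseudocount of 0.1 gave 4 (0.354%), quantile scaling 7 (0.496%), coverage 7 (0.456%) and length-weighted joining 6 (0.409%). With the replicate block, 26 passed (7.99% of all features). The following settings with the block were chosen after seeing the data: the count was 25 (4.17% of all features) with features of at least 0.5 FPKM in 2 libraries, 22 (9.74%) with features above 0 in all 6, and 3, 1 and 0 without pair 1, 2 and 3 (5, 1 and 0 of 12712 features), where 117, 100 and 105 loci had an unadjusted p below 0.05 in limma. The 18 named loci of the contrast include those at 0 in a whole group, and most others were chosen because their groups did not overlap. A tally over them is thus no measure of how stable the results are. Over these 18 loci, 272 values under an alternative kept direction and side of the threshold. Another 39 lost significance, 18 gained it and 3 changed direction, for causes not tested. The 3 were on coverage in place of FPKM: the log2 fold change became 0.47 at chr10:93336129-93348816, -0.0047 at chr12:110283983-110393723 and 0.14 at chr15:60120717-60187467. The adjusted p of chr13:21763796-21764082 ran from 0.0171 to 0.149 in limma over 19 alternatives, of which 10 were past the threshold. The number of kept loci was 914; it was 247 at 0.5 FPKM in all 6 libraries, 581 without loci within 5 kb of a reference gene, 820 to 834 without 1 library, and 660 to 881 under the other alternatives.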
